A study of Mus musculus with 20 samples.

Results

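The 10 genes described here encode proteins of the BCL-2 family or its direct antagonists: Bcl2, Bcl2l1, Mcl1, Bcl2l11, Bbc3, Pmaip1, Bid, Bmf, Bak1 and Bad. They were chosen by symbol: every probe set that the platform annotation assigns to exactly 1 of these symbols was used, which gave 70 probe sets of the 167016 that name 1 gene, and 10 of 19607 genes. Their RNA was measured on 20 arrays of cells from C57BL/6 mice, 10 of thymocytes and 10 of tumours, in a study of what the loss of Gfi1, a zinc finger repressor of transcription in blood cells, changes in irradiated or transformed thymocytes. Irradiated thymocytes had 3 arrays labelled Gfi1 KO and 3 labelled wt (WT here), and untreated thymocytes had 2 KO and 2 WT arrays. The sources used here give neither the dose of radiation, nor the time from irradiation to harvest, nor the allele of the thymocyte KO mice. Tumours transformed by Notch1-CT and ENU (Notch tumours) had 2 KO and 2 WT arrays, and tumours transformed by the mutagen ENU alone (ENU tumours) had 3 and 3. All tumour mice were Gfi1f/f, the KO mice also carried Mx1Cre, and the mice of the Notch tumours also carried the Notch tg. The tumour mice, WT ones included, received pIpC once a mediastinal tumour was seen by ultrasound, and tumour cells were explanted weeks later. pIpC switches on Mx1Cre, which acts in interferon-responsive cells and not in thymocytes alone, and it is itself an inducer of interferon. Whether each array of a group is a different mouse is not stated, and p-values may then reflect technical spread alone.

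Proteins of the BCL-2 family decide whether the outer membrane of mitochondria is opened, a step that releases cytochrome c and commits a cell to apoptosis. The survival proteins BCL2, BCL-XL (encoded by Bcl2l1) and MCL1 hold the pore-forming effectors, BAK1 among them, in check. Small BH3-only proteins, BIM (Bcl2l11), PUMA (Bbc3), NOXA (Pmaip1), BID, BMF and BAD, bind the survival proteins, and some of them also activate the effectors directly. In the thymus, double-positive thymocytes depend on BCL-XL and MCL1, cells before and after that stage carry more BCL2, BIM serves the deletion of self-reactive cells, and PUMA and NOXA are induced through p53 after DNA damage.

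Values are log2 signal as deposited, and a gene value is the median of its centred probe sets plus the mean of their levels. Levels of different genes come from different probes and are not compared. A difference is written with its standard error (SE), and a gene was called at an adjusted p under 0.05 in limma, a linear model fitted across all genes tested, with Benjamini-Hochberg adjustment. All 10 genes passed the filter on dim genes in each of the fits, which tested 12747 genes on the 10 thymocyte arrays, 13025 on the 10 tumour arrays and 13520 on all 20 arrays. A fold change can be read from a difference only if the deposited values have base 2, which the sources used here do not give.

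Some arrays stood apart or went against their labels. Over all probe sets, the correlation of a pair of arrays within 1 group ran from 0.870 to 0.988. The array KO Notch tumour 2 had a mean of 12.16 over 13 B-cell markers, against 7.30 to 8.82 on the other 9 tumour arrays. On that array the B-cell genes Cd79a and Pax5 were at 13.76 and 12.12, while Rag1 was at 7.86, Cd8a at 8.96 and Cd3e, the T cell receptor subunit, at 12.38 against 13.50 to 13.79 on the other tumour arrays. KO ENU tumour 1 had a mean of 11.15 over 18 markers of macrophages and dendritic cells, against 9.36 to 9.73 on the other 5 ENU tumour arrays, with Rag1 at 9.35. WT Notch tumour 1 had Rag1 at 8.20 and Cd4 at 9.80, against 13.06 and 12.43 on WT Notch tumour 2, and a mean of 10.19 over 15 double-positive markers, against 11.45. On the other 7 tumour arrays Rag1 was between 10.65 and 13.06. Cd3e was between 13.70 and 13.90 on all 10 thymocyte arrays. Of the 8 Gfi1 probe sets, 1 had a difference of -6.31 ± 0.15 in untreated KO thymocytes and of -4.51 ± 0.37 in KO Notch tumours (limma adjusted p = 2.44e-07 and 0.034). The same probe set had a difference of 1.23 ± 0.12 in irradiated KO thymocytes, where 5 others had differences from -2.44 to -1.35. The pattern of the Gfi1 probe sets thus differed between the untreated and irradiated arrays labelled KO, which enter the irradiation response of KO thymocytes together. In ENU tumours labelled KO, 0 of the 8 probe sets were called by limma (differences from -0.65 to 0.11), so KO there means only the label. The sources used here do not give which part of Gfi1 was removed or which part each probe set reads. Samples were bulk cells, so fewer cells of a type and less RNA per cell cannot be told apart.

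**Figure D1:**
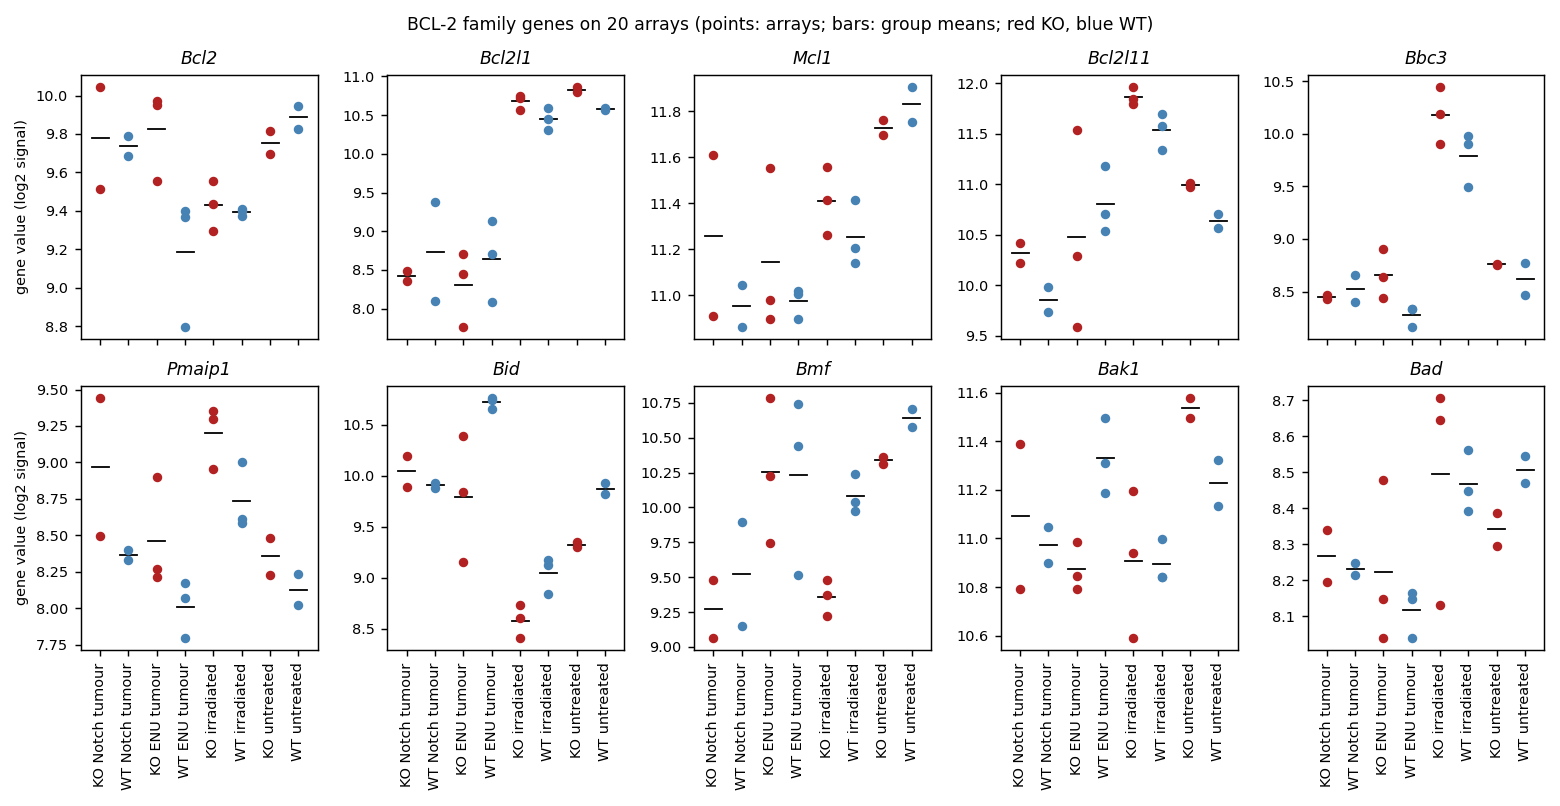
Each panel gives 1 gene on its own axis of log2 signal, with 1 point for each of the 20 arrays and a bar at the group mean. The 8 groups stand on the x axis, KO in red and WT in blue. The irradiated groups are highest for Bbc3 and Bcl2l11 and lowest for Bid, and all 10 tumour arrays lie below all 10 thymocyte arrays for Bcl2l1.

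The 8 group means spread most for Bcl2l1, by 2.53 on the log2 scale, followed by Bid (2.14), Bcl2l11 (2.01), Bbc3 (1.90), Bmf (1.37) and Pmaip1 (1.19). The means of Mcl1, Bcl2, Bak1 and Bad spread by 0.88, 0.70, 0.66 and 0.39. Bcl2l1 split the groups into thymocytes, with means from 10.45 to 10.83, and tumours, with means from 8.30 to 8.74. Arrays of tumour groups next to each other in the order overlapped, with SDs from 0.08 in KO Notch tumours to 0.90 in WT Notch tumours. The KO Notch mean lay 0.22 below that of WT ENU tumours and 0.11 above that of KO ENU tumours, gaps over its own SD but under those of its neighbours (0.53 and 0.49). Bbc3 split them otherwise: irradiated KO and WT thymocytes averaged 10.18 ± 0.27 and 9.79 ± 0.26 (SD, n = 3 each), and the other 6 groups averaged from 8.28 to 8.76. Bid was highest in WT ENU tumours (10.72 ± 0.06, SD, n = 3) and lowest in irradiated KO thymocytes (8.58 ± 0.16, SD, n = 3). The Bcl2l11 means ran from 9.86 in WT Notch tumours to 11.87 in irradiated KO thymocytes. For Bmf the lowest means, 9.27 in KO Notch tumours, 9.36 in irradiated KO thymocytes and 9.52 in WT Notch tumours, came from overlapping arrays. Bad was nearly flat, with all arrays between 8.04 and 8.71.

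Irradiated against untreated thymocytes asks how the family responded to irradiation in each genotype. Of the BH3-only genes Bbc3, Bcl2l11 and Pmaip1 were higher and Bid and Bmf lower in both genotypes. The survival genes Bcl2 and Mcl1 were lower in both, while Bcl2l1 was not called in either. In all, 3 of the 10 genes rose and 5 fell in KO thymocytes, against 38.8% of all genes tested called in either direction, and 3 rose and 4 fell in WT thymocytes, against 34.6% of all genes. Among all genes, 15.1% were called higher and 23.7% lower in KO, and 13.0% higher and 21.7% lower in WT. The median difference of the 10 genes was -0.23 in KO and -0.23 in WT, beside -0.02 and -0.02 over all genes tested. With all 20 arrays in 1 fit, Bbc3 was the only one of the 10 still called in either genotype.

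Bbc3, whose product PUMA binds all the survival proteins, had values of 10.18, 9.90 and 10.45 on the irradiated KO arrays and 8.75 and 8.76 on the untreated KO arrays. In WT it had 9.90, 9.98 and 9.49 after irradiation and 8.77 and 8.47 without. The lowest irradiated array thus lay above the highest untreated array in each genotype. The differences were 1.42 ± 0.16 in KO (limma adjusted p = 3.79e-06) and 1.17 ± 0.16 in WT (limma adjusted p = 3.24e-05). Tested one by one over all probe sets naming 1 gene, a test added after the data were seen, 4 of 4 Bbc3 probe sets rose in both genotypes, where 16.2% of all probe sets were called in KO and 11.9% in WT. Their differences ran from 0.87 to 2.41 in KO and from 0.74 to 2.20 in WT.

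Bcl2l11 encodes BIM, the BH3-only protein of thymocyte deletion. Its values were 11.79, 11.97 and 11.84 on irradiated KO arrays and 11.01 and 10.97 on untreated KO arrays. On WT arrays they were 11.34, 11.69 and 11.58 after irradiation and 10.71 and 10.56 without. No irradiated array overlapped an untreated one of its genotype, and the differences were 0.87 ± 0.11 in KO and 0.90 ± 0.11 in WT (limma adjusted p = 1.7e-05 and 1.49e-05). Of its 12 probe sets, 11 rose in KO and 10 in WT, and all 12 differences were positive in both.

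Pmaip1, which encodes the MCL1 antagonist NOXA, had 9.30, 9.35 and 8.95 on irradiated KO arrays and 8.23 and 8.48 on untreated KO arrays. It had 8.61, 9.001 and 8.58 on irradiated WT arrays and 8.02 and 8.23 on untreated WT arrays. Its differences of 0.84 ± 0.15 in KO and 0.61 ± 0.15 in WT were called (limma adjusted p = 0.000266 and 0.00433), with no overlap of arrays. Without WT untreated 1 the WT call was lost (0.50, limma adjusted p = 0.078). The 3 probe sets of Pmaip1 differed in size: the third rose by 1.67 ± 0.15 in KO and 0.97 ± 0.15 in WT, and the first had differences of 0.17 and 0.24 that were not called.

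The promoters shown are those of the genes looked up in which a FOXO core or a p53 half-site, both given below, was found. Of these genes, Bbc3 and Bcl2l11 rose together after irradiation, and Bmf moved the other way. Bid also fell, but neither motif was found in its window. Each sequence gives the 250 bases before a RefSeq start in GRCm38.p6, 5′ to 3′ on the gene's strand. Bbc3 has 3 such windows, Bcl2l11 2 and Bmf 3, and the window shown is the one of each gene that holds the motif in capitals. Pmaip1, which also rose, was left out of this search, so its promoter was not read. Of the 9 genes looked up, 9 matched RefSeq promoter windows, 17 in all, each 250 bases before to 50 after a start. Capitals mark TGTTTAC on either strand, the core bound by FOXO factors, in Bbc3 (chr7:16310011-16310260, plus strand) and Bcl2l11 (chr2:128125788-128126037, plus strand, where it reads GTAAACA). In Bmf (chr2:118544588-118544837, minus strand) they mark the p53 half-site consensus.
Bbc3: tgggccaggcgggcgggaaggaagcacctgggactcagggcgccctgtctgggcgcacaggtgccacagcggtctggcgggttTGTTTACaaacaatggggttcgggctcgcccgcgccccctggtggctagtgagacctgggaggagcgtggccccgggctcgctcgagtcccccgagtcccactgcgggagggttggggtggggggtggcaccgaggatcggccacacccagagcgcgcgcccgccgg
Bcl2l11: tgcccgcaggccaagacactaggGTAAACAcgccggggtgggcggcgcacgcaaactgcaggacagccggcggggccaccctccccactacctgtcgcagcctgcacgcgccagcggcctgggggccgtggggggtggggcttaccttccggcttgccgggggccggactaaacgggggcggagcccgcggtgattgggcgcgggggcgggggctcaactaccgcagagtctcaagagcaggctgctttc
Bmf: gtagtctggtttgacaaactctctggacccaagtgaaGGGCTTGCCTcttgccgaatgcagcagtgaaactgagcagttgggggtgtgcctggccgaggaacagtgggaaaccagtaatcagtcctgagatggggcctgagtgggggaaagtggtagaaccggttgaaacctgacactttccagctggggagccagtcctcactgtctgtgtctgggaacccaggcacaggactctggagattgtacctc
The FOXO core began 167 bases before the Bbc3 start and 227 bases before the Bcl2l11 start. It was in 2 of the 17 windows and in 3.65% of all 32851 RefSeq promoter windows of this length. The p53 half-site was in 1 of the 17, at 213 bases before the Bmf start, and in 8.36% of all windows. AATC, the core bound by GFI1, was in 12 of the 17, and in 73.1% of all windows. These are matches of letters and not measured sites.

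The BH3-only genes Bid and Bmf went down after irradiation. Bid, whose product is cut by caspase 8 and links death receptors to mitochondria, had 8.73, 8.41 and 8.60 on irradiated KO arrays and 9.30 and 9.35 on untreated KO arrays. On WT arrays it had 8.84, 9.13 and 9.18 after irradiation and 9.93 and 9.82 without. Irradiated and untreated arrays did not overlap, and Bid fell with differences of -0.74 ± 0.12 in KO and -0.83 ± 0.12 in WT (limma adjusted p = 0.000161 and 7.11e-05). Bmf, whose product responds to detachment and to cytoskeletal stress, had 9.48, 9.37 and 9.22 on irradiated KO arrays and 10.36 and 10.31 on untreated KO arrays. It had 10.04, 10.24 and 9.97 on irradiated WT arrays and 10.70 and 10.58 on untreated WT arrays. It fell in both genotypes, with differences of -0.98 ± 0.11 in KO and -0.56 ± 0.11 in WT (limma adjusted p = 4.31e-06 and 0.00103). Of its 5 probe sets 5 fell in KO and 3 in WT. Bad, a BH3-only protein held by phosphorylation in cells with growth factors, was not called (0.15 ± 0.14 in KO and -0.04 ± 0.14 in WT, limma adjusted p = 0.394 and 0.844). Without KO irradiated 2, the lowest Bad array of that group, the KO difference was 0.34 and was called (limma adjusted p = 0.0184).

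Among the survival genes Bcl2 had 9.30, 9.55 and 9.44 on irradiated KO arrays and 9.69 and 9.82 on untreated KO arrays. On WT arrays it had 9.41, 9.38 and 9.40 after irradiation and 9.94 and 9.83 without. All irradiated arrays lay below the untreated ones of their genotype, and Bcl2 fell with differences of -0.33 ± 0.10 in KO and -0.49 ± 0.10 in WT (limma adjusted p = 0.0191 and 0.00155). The KO call was lost without KO irradiated 1, KO untreated 1 or KO untreated 2. The 8 Bcl2 probe sets did not move alike: the fourth had differences of -2.08 ± 0.17 in KO and -1.85 ± 0.17 in WT, and the other 7 lay between -0.67 and 0.14 in KO and between -0.80 and -0.20 in WT.

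Mcl1 encodes a survival protein of short half-life. It had 11.26, 11.56 and 11.41 on irradiated KO arrays and 11.70 and 11.76 on untreated KO arrays. In WT it had 11.20, 11.41 and 11.14 after irradiation, and 11.91 and 11.75 without. The groups did not overlap, and Mcl1 fell by 0.58 ± 0.11 in WT (limma adjusted p = 0.00101) and by 0.32 ± 0.11 in KO (limma adjusted p = 0.0367). The KO call was lost without KO irradiated 1 or 3 or KO untreated 1 or 2, with adjusted p from 0.0716 to 0.195. It was also lost under 4 of 7 other settings: brighter probe sets only, no filter on dim genes, the replicate block (limma adjusted p = 0.0573, 0.0551 and 0.0878) and all 20 arrays.

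Bcl2l1, which encodes BCL-XL, had gene values between 10.57 and 10.75 on irradiated KO arrays and of 10.79 and 10.87 on untreated KO arrays. In WT it had 10.31 to 10.59 after irradiation and 10.60 and 10.56 without. It was not called (-0.15 ± 0.11 in KO and -0.13 ± 0.11 in WT, limma adjusted p = 0.267 and 0.352). Its 14 probe sets pointed both ways. The first was higher after irradiation in KO (0.86 ± 0.26, limma adjusted p = 0.0491), with 0.73 ± 0.26 in WT, where it was not called. The second fell in KO (-0.59 ± 0.17) and the thirteenth in WT (-0.44 ± 0.12). Which transcript forms of Bcl2l1 these probe sets read was not tested.

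Bak1, the effector that forms pores in the outer mitochondrial membrane, had 10.94, 10.59 and 11.19 on irradiated KO arrays and 11.58 and 11.50 on untreated KO arrays. It fell there by 0.63 ± 0.14 (limma adjusted p = 0.00197). In WT it had 10.84, 11.00 and 10.84 after irradiation, and 11.32 and 11.13 without. The WT arrays did not overlap either, but the difference of -0.33 ± 0.14 was not called (limma adjusted p = 0.0718). All 8 Bak1 probe sets had negative differences in both genotypes, of which 4 passed in KO and 1 in WT.

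**Figure D2:**
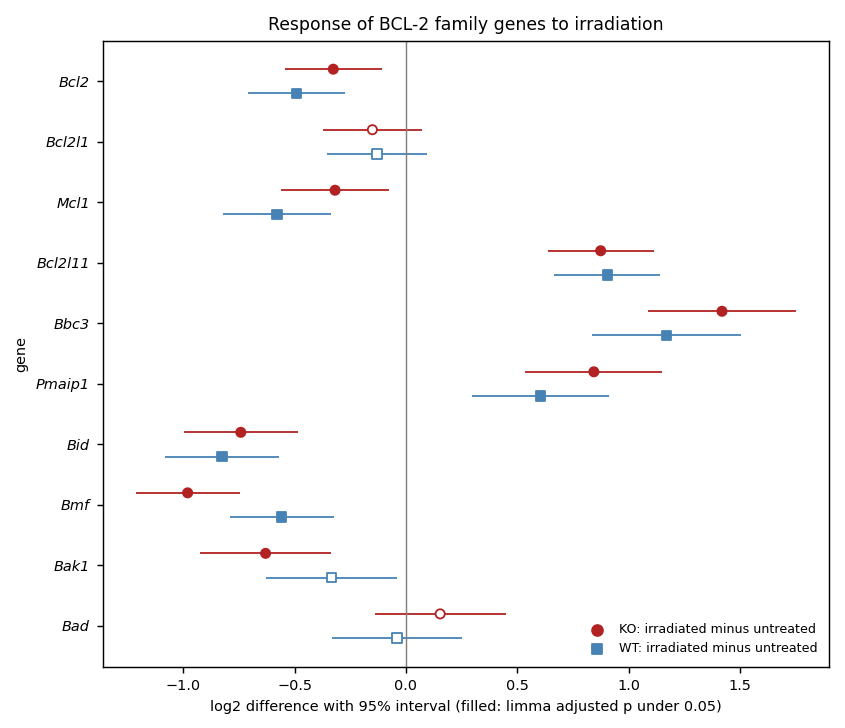
The x axis gives the log2 difference of irradiated minus untreated thymocytes for each gene, with KO circles above WT squares, bars for 95% intervals and filled symbols at a limma adjusted p under 0.05. Bbc3, Bcl2l11 and Pmaip1 lie right of 0 and Bid, Bmf, Bcl2 and Mcl1 left of it in both genotypes.

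**Figure D3:**
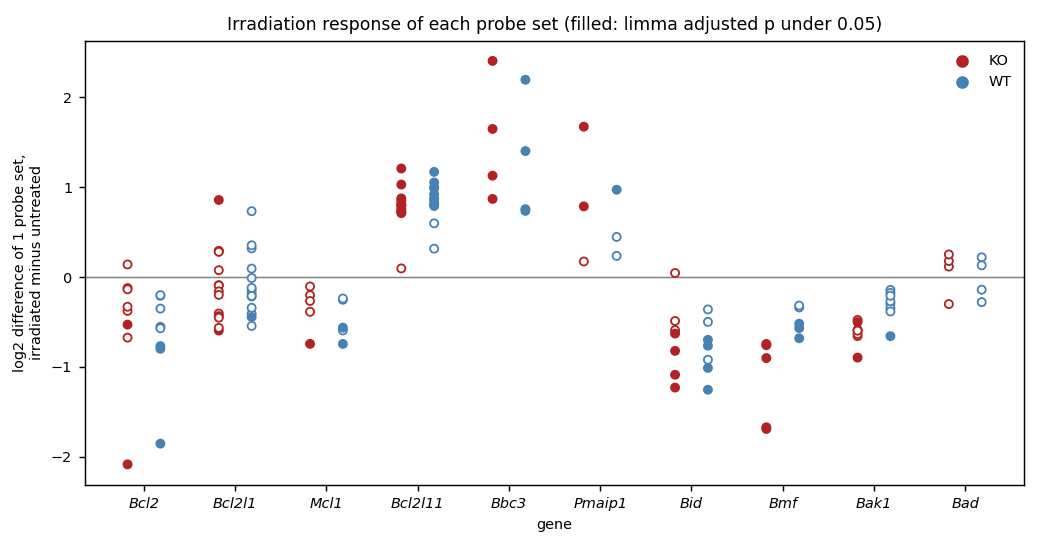
Each point is 1 of the 70 probe sets, with its log2 difference of irradiated minus untreated thymocytes on the y axis, KO in red left of WT in blue, filled at a limma adjusted p under 0.05 over 167016 probe sets. The fourth Bcl2 probe set lies near -2 in both genotypes, apart from the other 7, and the 14 Bcl2l1 probe sets lie on both sides of 0.

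The difference between the responses of KO and WT thymocytes was called for 0 of the 10 genes in limma, against 1.88% of all genes. An unadjusted p under 0.05 was reached by 1635 of all 12747 genes tested and by 1 of the 10. That gene was Bmf, whose response differed by -0.42 ± 0.16 (limma adjusted p = 0.226). All 5 Bmf probe sets responded more negatively in KO than in WT, by 0.33 to 1.15. With the mean of its probe sets in place of the median, the difference of -0.67 ± 0.14 was called (limma adjusted p = 0.0225). For Bak1, called in KO alone, the responses differed by -0.30 with a 95% interval from -0.71 to 0.12. For Mcl1 the difference was 0.26 with an interval from -0.08 to 0.60, and for Bcl2l11 it was -0.03 with an interval from -0.37 to 0.31.

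Markers of other cells moved with irradiation as well. Of 15 tested markers of macrophages and dendritic cells, 13 fell in KO and 13 in WT. Of 10 B-cell markers, 9 fell in KO and 8 in WT. Of 15 double-positive thymocyte markers 9 fell in KO, and 8 fell and 1 rose in WT. Of 10 markers of NK and cytotoxic cells, 8 fell in KO and 6 in WT. Granulocyte markers did not move alike in the genotypes: of 12 tested, 3 rose and 1 fell in KO, while 1 rose and 10 fell in WT. The difference between these responses was called positive for 10 of the 12 and negative for 1. The mean over the 18 macrophage markers was between 8.84 and 9.12 on irradiated KO arrays, against 9.67 to 9.69 on untreated KO arrays, and between 8.17 and 8.25 on irradiated WT arrays, against 9.17 to 9.24 on untreated WT arrays. Their part in the responses of the 10 genes was not tested.

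Genes around the family were counted from fixed lists. Of 26 tested p53 targets outside the family, 17 rose and 5 fell in KO and 14 rose and 4 fell in WT, with the cell cycle inhibitor Cdkn1a at 1.83 ± 0.13 in KO and 2.74 ± 0.13 in WT (limma adjusted p = 2.91e-08 and 5.39e-10). Phlda3, an inhibitor of AKT, had differences of 2.88 ± 0.14 in KO and 2.64 ± 0.14 in WT. Of 12 tested genes of the mitochondrial death pathway, Vdac channel genes included, 1 rose and 5 fell in KO. In WT 1 rose and 3 fell. Apaf1, the scaffold of the apoptosome, rose by 0.67 ± 0.12 in KO and 0.70 ± 0.12 in WT. Xiap, an inhibitor of caspases, fell, with -0.97 ± 0.15 in KO and -0.83 ± 0.15 in WT. Of 19 tested partners and regulators of BCL-2 proteins, 1 rose and 8 fell in KO, and 2 rose and 8 fell in WT. Rps6ka1, a kinase that phosphorylates BAD, fell, with -1.32 ± 0.15 in KO and -0.77 ± 0.15 in WT, and Pim1, another such kinase, rose by 0.84 ± 0.16 in KO. Of 10 tested further family members, 1 rose and 1 fell in KO and 1 rose and 3 fell in WT. They included Becn1, the autophagy protein bound by BCL2, which fell by 0.54 ± 0.10 in WT.

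KO against WT was compared in thymocytes before and after irradiation. In irradiated thymocytes, 2 of the 10 genes were higher and 2 lower in KO, against 14.9% of all genes tested in either direction, 8.12% higher and 6.81% lower. In untreated thymocytes, 0 were higher and 1 lower, against 12.3% of all genes, 6.79% higher and 5.49% lower. There 4 of the 10 passed an unadjusted p under 0.05, beside 2987 of all 12747 genes tested. The median over the 10 genes was 0.10 in irradiated and 0.02 in untreated thymocytes, beside -0.03 and -0.02 over all genes. With all 20 arrays in 1 fit, 0 of the 10 were called in limma in either setting.

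Bid was called in both settings. The irradiated KO arrays lay at 8.41 to 8.73, below the irradiated WT arrays at 8.84 to 9.18, a difference of -0.47 ± 0.11 (limma adjusted p = 0.00602). It stayed called without any 1 of the 6 arrays. The untreated KO arrays at 9.30 and 9.35 lay below the untreated WT arrays at 9.93 and 9.82, a difference of -0.55 ± 0.13 (limma adjusted p = 0.00949). That call was lost without WT untreated 1, KO untreated 1 or KO untreated 2, with differences from -0.57 to -0.49 and adjusted p from 0.0585 to 0.106. All 7 Bid probe sets had negative differences in untreated cells and 6 in irradiated cells, and 0 of them passed alone, where 2.68% of all probe sets were called in untreated cells.

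Bmf was lower in irradiated KO thymocytes, where all 3 arrays (9.22 to 9.48) lay below all 3 WT arrays (9.97 to 10.24). The difference of -0.72 ± 0.10 (limma adjusted p = 4.51e-05) stayed called without any 1 array, with values from -0.79 to -0.65. Of its 5 probe sets 3 were lower, where 4.42% of all probe sets were called, and the first differed by -1.38 ± 0.13. In untreated thymocytes the KO arrays also lay below the WT arrays, but the difference of -0.30 ± 0.12 was not called (limma adjusted p = 0.128).

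Bcl2l11 was higher in irradiated KO arrays (11.79 to 11.97) than in irradiated WT arrays (11.34 to 11.69), by 0.33 ± 0.10 (limma adjusted p = 0.0357). The call was lost without WT irradiated 1 or 3 or KO irradiated 2 or 3, with adjusted p from 0.0622 to 0.12. It was also lost under 4 of 7 other settings: brighter probe sets only, no filter on dim genes, the replicate block (limma adjusted p = 0.0668, 0.0609 and 0.0544) and all 20 arrays. In untreated thymocytes the KO arrays (11.01 and 10.97) lay above the WT arrays (10.71 and 10.56) by 0.36 ± 0.12, which did not pass (limma adjusted p = 0.0713). All 12 probe sets were higher-valued in KO in both settings, by 0.24 to 0.62 in irradiated and 0.26 to 0.64 in untreated cells. Under 3 other settings, the mean of probe sets, quantile normalization and a trended robust fit, the untreated difference passed (limma adjusted p from 0.0145 to 0.0478).

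Pmaip1 was higher in irradiated KO thymocytes by 0.47 ± 0.13 (limma adjusted p = 0.0204), although KO irradiated 3 (8.95) lay below WT irradiated 2 (9.001). The call was lost without WT irradiated 1 or 3 or KO irradiated 1 or 2, with adjusted p from 0.0628 to 0.0887, and with brighter probe sets only (limma adjusted p = 0.0534). Of its probe sets, the third differed by 0.82 ± 0.13 and was called, and the first by 0.07 ± 0.13. Bbc3 had 10.18, 9.90 and 10.45 in irradiated KO arrays against 9.90, 9.98 and 9.49 in irradiated WT arrays. This difference of 0.39 ± 0.14 did not pass (limma adjusted p = 0.0807), and passed at 0.52 without KO irradiated 2.

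The survival genes were not called between genotypes in either setting. Bcl2l1 had differences of 0.23 ± 0.09 in irradiated and 0.25 ± 0.12 in untreated thymocytes (limma adjusted p = 0.127 and 0.199). Without WT irradiated 1 the irradiated Bcl2l1 difference was 0.30 and was called (limma adjusted p = 0.0449). Bcl2 had 0.03 with a 95% interval from -0.16 to 0.23 in irradiated cells and -0.13 with an interval from -0.37 to 0.11 in untreated cells. Mcl1 had 0.16 ± 0.10 and -0.10 ± 0.13. Bak1 had 0.01 ± 0.12 in irradiated and 0.31 ± 0.15 in untreated cells (limma adjusted p = 0.97 and 0.236).

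Of 23 tested transcription factors and receptors that act upstream of the family, 7 were higher and 2 lower in irradiated KO thymocytes. In untreated KO thymocytes 4 were higher and 0 lower. The list includes Gfi1 itself, the gene lost by label. It counts among the genes lower in irradiated KO thymocytes (-1.31 ± 0.12) and was not called in untreated ones (0.26 ± 0.15). Foxo1, an activator of Bcl2l11, was higher in untreated KO thymocytes by 1.18 ± 0.13 (limma adjusted p = 4.87e-06). Nfkb1, a subunit of NF-kappaB, was higher by 1.13 ± 0.09 in irradiated and 0.71 ± 0.11 in untreated KO thymocytes (limma adjusted p = 5.32e-08 and 0.000164). Il7r, the interleukin 7 receptor chain that maintains Bcl2, was higher by 0.48 ± 0.12 in untreated KO thymocytes (limma adjusted p = 0.0136). Of the 26 p53 targets 1 was higher and 2 lower in irradiated KO thymocytes, with Cdkn1a at -0.48 ± 0.11 (limma adjusted p = 0.00712). In untreated KO thymocytes 1 was higher and 3 lower, among them the repair factor Ddb2 at -0.58 ± 0.11. Of the 12 genes of the mitochondrial death pathway, 1 was lower in irradiated KO thymocytes, the mitochondrial channel gene Vdac1 (-0.46 ± 0.09). In untreated cells 0 of them passed in limma, with 0 at an unadjusted p under 0.05. Of the 10 further family members 0 passed in limma in either setting, with 0 and 0 at an unadjusted p under 0.05 and a smallest adjusted p of 0.253 in irradiated and 0.294 in untreated cells.

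Cell type markers differed between the genotypes as well. Of 15 tested markers of mature single-positive thymocytes, 10 were higher and 3 lower in irradiated KO, and 7 higher and 1 lower in untreated KO thymocytes. Of 12 tested granulocyte markers, 7 were lower in irradiated and 10 in untreated KO thymocytes. Of 15 tested markers of macrophages and dendritic cells, 12 were higher in irradiated and 11 in untreated KO thymocytes. Higher in irradiated and in untreated KO thymocytes were 8 and 5 of 10 markers of NK and cytotoxic cells, 6 and 6 of 10 B-cell markers, 4 and 4 of 6 gamma delta T-cell markers and 4 and 4 of 7 markers of erythroid cells and platelets. Among these, 1 B-cell marker was lower in irradiated KO thymocytes. Of the 15 double-positive markers, 1 was higher and 4 lower in irradiated KO thymocytes and 1 higher and 3 lower in untreated KO thymocytes. The mean over 12 granulocyte markers was between 7.07 and 7.12 on irradiated KO arrays, against 7.86 to 7.94 on irradiated WT arrays, and between 6.89 and 6.94 on untreated KO arrays, against 9.08 to 9.25 on untreated WT arrays. The mean over 15 mature markers was between 10.85 and 10.91 on irradiated KO arrays, against 10.35 to 10.47 on irradiated WT arrays. Their part in the differences of Bid, Bmf, Bcl2l11 and Pmaip1 was not tested.

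**Figure D4:**
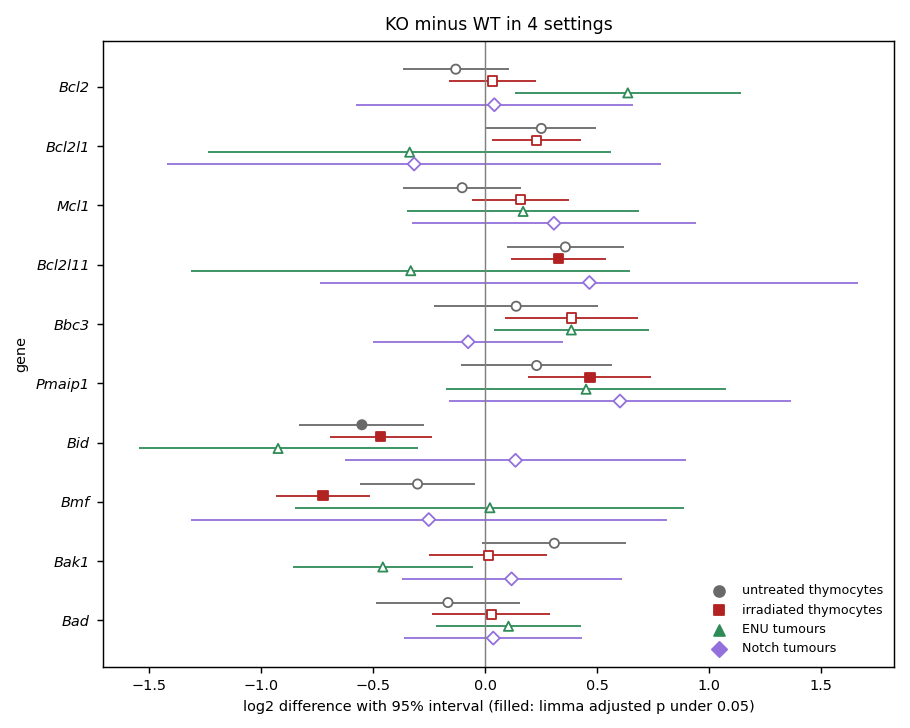
The x axis gives the log2 difference of KO minus WT for each gene in untreated thymocytes, irradiated thymocytes, ENU tumours and Notch tumours, with bars for 95% intervals and filled symbols at a limma adjusted p under 0.05. Filled symbols stand at Bid in both thymocyte settings and at Bcl2l11, Pmaip1 and Bmf in irradiated thymocytes. The Notch tumour interval is the widest for each gene.

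In tumours KO against WT asks what the label KO goes with in transformed cells. In Notch tumours 0 of the 10 genes were called by limma, against 0.0154% of all genes. An unadjusted p under 0.05 was reached there by 0 of the 10, beside 780 of all 13025 genes tested. In ENU tumours 0 were called, against 0% of all genes. There 4 of the 10 passed an unadjusted p under 0.05, beside 1782 of all 13025 genes tested. The intervals were wide: for Bcl2l11 they ran from -0.74 to 1.67 in Notch tumours and from -1.31 to 0.65 in ENU tumours.

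In Notch tumours Pmaip1 had 8.49 and 9.44 on the KO arrays, against 8.33 and 8.40 on the WT arrays, a difference of 0.60 ± 0.33 (limma adjusted p = 0.807). The high value came from KO Notch tumour 2, the array with high B-cell markers, and without it the difference was 0.13. Mcl1 had 10.91 and 11.61 in KO, against 10.86 and 11.04 in WT. Without KO Notch tumour 2 the Mcl1 difference was -0.04, against 0.31 with it. Bcl2 had 9.51 and 10.05 in KO, against 9.69 and 9.79 in WT, and its difference was 0.04 with and -0.23 without that array. Bcl2l11 had 10.42 and 10.22 in KO, against 9.73 and 9.98 in WT, which did not overlap (0.47 ± 0.53, limma adjusted p = 0.907).

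The 4 genes at an unadjusted p under 0.05 in ENU tumours were Bid, Bcl2, Bak1 and Bbc3. Bid had 9.16, 9.84 and 10.39 on the arrays labelled KO, against 10.66, 10.76 and 10.74 on the WT arrays. All 3 KO arrays were lower, by -0.93 ± 0.27 (limma adjusted p = 0.347). Bcl2 had 9.56, 9.95 and 9.97 in KO, against 8.80, 9.40 and 9.37 in WT, a difference of 0.64 ± 0.22 without overlap (limma adjusted p = 0.352). Bak1 had 10.79, 10.99 and 10.85 in KO, against 11.18, 11.31 and 11.50 in WT (-0.46 ± 0.18, limma adjusted p = 0.363). Bbc3 had 8.90, 8.44 and 8.64 in KO, against 8.17, 8.33 and 8.33 in WT (0.39 ± 0.15, limma adjusted p = 0.363). With all 20 arrays in 1 fit Bcl2 and Bid passed (limma adjusted p = 0.0453 and 0.0307). KO ENU tumour 1, the array with high macrophage markers, had the highest Mcl1, Bcl2l11 and Pmaip1 values (11.55, 11.54 and 8.90) and the lowest Bid value of the 6. Without it the difference was -0.61 for Bid, 0.77 for Bcl2, -0.42 for Bak1 and 0.27 for Bbc3, and 0 were called. The mean over 15 mature single-positive markers was between 10.27 and 10.88 on KO ENU arrays, against 9.24 to 9.62 on WT ENU arrays. Over 15 markers of NK and cytotoxic cells it was 8.29 to 8.88 against 7.50 to 7.95. Double-positive markers overlapped (10.12 to 11.28 against 11.23 to 11.44). The part of such cells in these differences was not tested.

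A difference in the KO effect between tumour types was called for 0 of the 10 genes in limma, against 0% of all genes. An unadjusted p under 0.05 was reached by 934 of all 13025 genes tested and by 1 of the 10. That was Bid, with 1.06 ± 0.43 for Notch minus ENU tumours (limma adjusted p = 0.68). WT Notch against WT ENU tumours also had 0 of 10 called in limma, against 0.023% of all genes. At an unadjusted p under 0.05, reached by 967 of all 13025 genes tested, Bid again was the 1 of the 10. It had 9.88 and 9.93 in WT Notch tumours, against 10.66, 10.76 and 10.74 in WT ENU tumours (-0.81 ± 0.31, limma adjusted p = 0.6). Bcl2l11 had 9.73 and 9.98 in WT Notch tumours, against 10.70, 10.53 and 11.18 in WT ENU tumours (-0.95 ± 0.48, limma adjusted p = 0.695).

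WT tumours were set against WT untreated thymocytes with all 20 arrays in the fit. Bcl2l1 and Mcl1 were lower in both tumour types, and in ENU tumours Bcl2 was lower and Bid higher. In WT Notch tumours 0 of the 10 genes rose and 2 fell, against 7.68% of all genes in either direction, 2.14% higher and 5.54% lower. In WT ENU tumours 1 rose and 3 fell, against 20.1% of all genes, 9.87% higher and 10.2% lower. The median of the 10 genes was -0.27 in Notch and -0.37 in ENU tumours, beside 0.00 and 0.01 over all genes. Both comparisons share the 2 WT untreated arrays.

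Bcl2l1 had 8.10 and 9.37 in WT Notch tumours and 9.13, 8.71 and 8.08 in WT ENU tumours, against 10.60 and 10.56 in WT untreated thymocytes. The highest tumour array was more than 1 log2 unit below the lowest thymocyte array. The differences were -1.84 ± 0.37 in Notch and -1.94 ± 0.34 in ENU tumours (limma adjusted p = 0.00887 and 0.00135). Of its 14 probe sets, 9 fell in Notch tumours, where 3.53% of all probe sets were called, and 13 fell in ENU tumours, where 12.9% were called. The first probe set was higher-valued in both (0.65 and 0.49) and not called. The ENU call held without any 1 array. The Notch call was lost without WT Notch tumour 1, the array with Rag1 at 8.20 (-1.21, limma adjusted p = 0.124), WT untreated 1 (-1.83, 0.0983) or WT untreated 2 (-1.86, 0.0683).

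Mcl1 had 10.86 and 11.04 in WT Notch tumours and 11.02, 10.90 and 11.00 in WT ENU tumours, against 11.91 and 11.75 in WT untreated thymocytes. It was lower by -0.88 ± 0.22 in Notch and -0.86 ± 0.20 in ENU tumours (limma adjusted p = 0.0257 and 0.00849). The Notch call was lost without any 1 of its 4 arrays (adjusted p from 0.0524 to 0.21), and the ENU call without WT untreated 1 (adjusted p = 0.0962). Bcl2 had 8.80, 9.40 and 9.37 in WT ENU tumours, against 9.94 and 9.83 in WT untreated thymocytes, and differed by -0.70 ± 0.19 (limma adjusted p = 0.018). In WT Notch tumours it had 9.69 and 9.79, a difference of -0.15 with a 95% interval from -0.59 to 0.29. The ENU call of Bcl2 was lost without WT ENU tumour 1 or either untreated array.

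Bid had 10.66, 10.76 and 10.74 in WT ENU tumours, against 9.93 and 9.82 in WT untreated thymocytes, and rose by 0.85 ± 0.24 (limma adjusted p = 0.0233). All 7 Bid probe sets were higher-valued and 3 passed. The call was lost without WT ENU tumour 2 or 3 or either untreated array, with adjusted p from 0.053 to 0.151. In WT Notch tumours Bid had 9.88 and 9.93, a difference of 0.03 ± 0.26. Bmf had 9.15 and 9.89 in WT Notch tumours, against 10.70 and 10.58 in WT untreated thymocytes (-1.12 ± 0.36, limma adjusted p = 0.0696), and was called without WT Notch tumour 2 (-1.49, limma adjusted p = 0.0494). Bcl2l11 differed by -0.78 ± 0.40 in WT Notch tumours and was not called (limma adjusted p = 0.257), but was with the arrays of those 2 groups alone in the fit (limma adjusted p = 0.0317). Bbc3, Pmaip1, Bak1 and Bad were not called in either tumour type, with differences between -0.39 and 0.24.

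**Figure D5:**
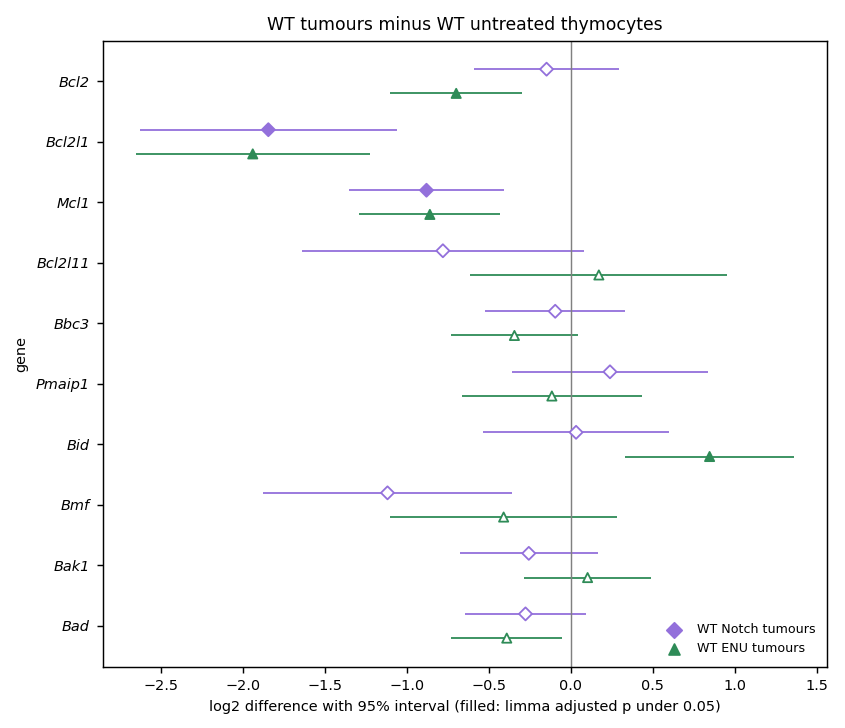
The x axis gives the log2 difference of WT Notch tumours (diamonds) and WT ENU tumours (triangles) minus WT untreated thymocytes for each gene, with bars for 95% intervals and filled symbols at a limma adjusted p under 0.05. Bcl2l1 lies near -1.9 in both tumour types, and Bid lies right of 0 in ENU tumours and near 0 in Notch tumours.

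Of 11 tested further family members, 1 rose in both WT tumour types: Bcl2l14, a distant family member, by 1.12 ± 0.30 in Notch and 1.21 ± 0.27 in ENU tumours (limma adjusted p = 0.0335 and 0.00675). Of 12 genes of the mitochondrial death pathway, 1 fell in both, the executioner caspase gene Casp6 (-0.50 ± 0.14 in Notch and -0.81 ± 0.13 in ENU tumours). Of 19 partners and regulators, 2 rose and 1 fell in Notch and 4 rose and 2 fell in ENU tumours. Huwe1, the ubiquitin ligase that marks MCL1 for destruction, rose by 0.62 ± 0.15 in Notch and 0.74 ± 0.14 in ENU tumours (limma adjusted p = 0.0246 and 0.0024). The stage markers moved too: of 15 markers of double-positive thymocytes, 2 fell in Notch and 2 in ENU tumours, with list medians of -0.82 and -0.84. Of 15 mature single-positive markers, 2 fell in Notch and 11 in ENU tumours, with medians of -0.79 and -1.20. Double-negative markers went the other way: of 10, 1 rose in Notch and 3 in ENU tumours and 0 fell, with medians of 0.16 and 0.33. Of 12 granulocyte markers, 8 fell in Notch and 7 in ENU tumours, with medians of -1.81 and -1.90. Their part in the differences of Bcl2l1, Mcl1, Bcl2 and Bid was not tested.

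The genes most like each member over the 8 group means were taken among 3808 genes whose means spread by over 1 on the log2 scale. They are a description over 8 points, which share arrays and processing. Bcl2l1 was closest to Mat2b (Pearson r = 0.994), Gse1 (0.993) and Gm13969 (0.993). Bbc3 was closest to Kdm2b (0.985), Atg2a (0.983) and Tcf7l2 (0.981), Bid to Mrps15 (0.984), Fh1 (0.980) and Cacybp (0.978), and Bcl2l11 to Prei4 (0.972), Inpp5a (0.971) and Ppp2r3a (0.967). Bmf was closest to Eya2 (0.959) and Pmaip1 to Plagl1 (0.957), with the next genes at 0.932 and 0.902.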

How the data were processed

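RNA was measured on 20 arrays, 10 of thymocytes and 10 of tumours. The authors' deposited table holds 182058 probe sets, with values from 3.37 to 15.01 that were read as log2 signal. Its log base, background correction, normalization, summary and scale are not stated in the sources used here, and array medians lay between 9.08 and 9.27. Per the labels, RNA was amplified with a NuGEN kit and labelled with biotin. Gene symbols come from GEO's annotation of the platform, which may be dated. 167016 name 1 gene, 3388 name several and 11654 none, and the last 2 kinds were left out, 1 probe set shared by Bak1 and Ggnbp1 included.

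After centring each probe set over the 20 arrays, the gene value on an array was the median of the gene's probe sets plus the mean of their levels. Genes above an array's 40th percentile in at least 2 arrays of a fit entered it. Groups follow the labels. The 11 comparisons used limma 3.58.1 (lmFit and eBayes) in R 4.3.3 with Benjamini-Hochberg adjustment, on the 10 thymocyte arrays, the 10 tumour arrays or, for tumours against thymocytes, all 20. Intervals are 95% intervals of limma. The fit was tested on simulated data. Figures used Python 3.11.15 and matplotlib 3.10.9. The alternatives were the mean of probe sets, brighter probe sets only, quantile normalization, no filter, a trended robust fit, a replicate block, other arrays in the fit and leaving out each array. Promoters came from RefSeq (GRCm38.p6).

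The members and the gene lists were chosen with earlier results of these data known. The named-gene rule takes the 10 members everywhere, up to 4 genes of smallest p from each pathway list, and the 3 genes of highest r for members whose group means spread by over 1. The number of arrays, 2 or 3 in a group, limits the precision.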

Additional observations from a re-analysis of the deposited data

Results flagged for a closer look

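The KO effect of Bcl2 pointed opposite ways in 2 settings: every ENU tumour array labelled KO lay above every WT array (difference 0.64), while every untreated KO thymocyte array lay below every WT array (difference -0.13). These differ by -0.7689 for untreated thymocytes minus ENU tumours. The KO effect of Bak1 did the reverse, with every ENU tumour array labelled KO below every WT array (-0.46) and every untreated KO thymocyte array above every WT array (0.31), which differ by 0.7663. Neither difference between the settings was tested, and none of the 4 KO effects passed limma's adjusted threshold. Of 70 pairs of settings and genes looked at, all of them for genes of the family, these 2 showed such an order. The same count was not made over all genes. With so few arrays in a group, such an order can also come from the spread of arrays alone. Whether 2 of 70 is more than other genes would give was therefore not tested. The Gfi1 probe sets did not show the labelled loss in the ENU tumours.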

How the results depend on the processing

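Of 313 recomputed differences of called genes, 0 reversed, 253 stayed called and 60 did not, 34 of them among 131 that left out 1 array and 19 of 26 with other arrays in the fit. No filter, the trended robust fit and other arrays in the fit keep the group means, so the difference itself could not change or reverse there. These settings account for 26 of the 313 each and bear on the calls alone. The remaining losses were 3 with brighter probe sets only (Bcl2l11 and Pmaip1 for KO against WT in irradiated thymocytes, Mcl1 for irradiation in KO). There were also 2 with no filter on dim genes and 2 with the replicate block, both times that Bcl2l11 and that Mcl1 result. For KO against WT in untreated thymocytes the count of genes called, 1, became 2 with the mean of probe sets, 2 with quantile normalization, 2 with a trended robust fit and 0 with all 20 arrays in the fit, and ran from 0 to 1 without 1 array each. Bcl2l11 was the gene added under the first 3. For KO against WT in irradiated thymocytes, 4 became 2 with brighter probe sets only and 0 with all 20 arrays, and ran from 2 to 4 without 1 array each. The difference between irradiation responses went to 1 called gene, Bmf, with the mean of probe sets. With all 20 arrays, KO against WT in ENU tumours had 2 called, and the irradiation response 1 in KO and 1 in WT thymocytes, Bbc3 in both. WT ENU tumours against WT untreated thymocytes ran from 1 to 3 and WT Notch tumours from 0 to 2 without 1 array each. The cause of these shifts was not tested. Where an array left out leaves 1 in its group, that array is assumed to vary like the other groups.

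The replicate numbers of the titles are not stated to pair samples, and same-numbered irradiated KO and WT arrays had deviations that correlated at 0.20, -0.03 and -0.32. With the replicate block, 1 gene was called for KO against WT in untreated and 3 in irradiated thymocytes, where Bcl2l11 had a limma adjusted p of 0.0544. The block gave 7 called genes for irradiation in KO (without Mcl1) and 8 in WT (with Bak1), 4 for WT ENU and 2 for WT Notch tumours against untreated thymocytes, and 0 in the other 5 comparisons.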
